A study of Mus musculus with 8 samples.

Results

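The genes described here encode proteins of the small subunit of the mouse cytosolic ribosome. The 29 genes were taken from a fixed list of Rps genes with Rpsa and Fau, pseudogenes left out, among 55536 annotated genes. Their RNA and their ribosome footprints were counted in KRPC-A cells, a PDAC-like pancreatic tumour line that came from genetically engineered C57BL/6 mice. Cells were either Gcn2 KO or Gcn2 WT, and each was kept for 1 h in leucine-free or in amino acid-replete medium. The 4 conditions were thus KO leucine-free, KO replete, WT leucine-free and WT replete. Each had 1 RNA-seq library and 1 footprint library, so no spread between cultures could be estimated and no p-value is given. The method of knockout, and whether a clone or a mixed population was used, is not given in the sources used here.

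Ribosomal proteins of the small subunit hold the decoding site, where messenger RNA is read, and the channels through which the mRNA enters and leaves. In vertebrates their mRNAs belong to the terminal oligopyrimidine (TOP) class, which begins with a C followed by a run of C and T bases. Translation of TOP mRNAs depends on mTORC1, a kinase complex that amino acids including leucine activate, and on the RNA-binding protein LARP1. GCN2, encoded by Eif2ak4, is a different amino acid sensor, a kinase of the initiation factor eIF2alpha that responds to uncharged transfer RNA.

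The start regions of 8 of these genes are printed as examples, because the TOP class is defined there. A run is more frequent among them than among all the genes with an entry, whose share is given below. Each line holds 30 bases of RefSeq sequence on build GRCm38.p6, the 15 before the annotated transcription start and the 15 from it on, and capitals mark the oligopyrimidine run. The run was defined as a C within 5 bases of the annotated start followed by at least 4 C or T bases, read on the gene's own strand.
Rps15a, chr7:118116133-118116162, minus strand: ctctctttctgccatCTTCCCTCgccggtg
Rps18, chr17:33955651-33955680, minus strand: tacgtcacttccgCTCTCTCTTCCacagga
Rps24, chr14:24490663-24490692, plus strand: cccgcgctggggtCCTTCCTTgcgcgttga
Rps26, chr10:128626492-128626521, minus strand: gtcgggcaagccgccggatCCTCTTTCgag
Rps21, chr2:180257364-180257393, plus strand: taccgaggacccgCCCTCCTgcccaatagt
Fau, chr19:6057932-6057961, plus strand: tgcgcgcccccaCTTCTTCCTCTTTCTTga
Rps12, chr10:23787195-23787224, minus strand: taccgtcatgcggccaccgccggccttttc
Rps7, chr12:28635939-28635968, minus strand: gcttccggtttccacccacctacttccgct

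Rps15a, Rps18, Rps24, Rps26, Rps21 and Fau have such a run, while Rps12 and Rps7 have none that begins within 5 bases of the annotated start. Rps21 and Rps24 each have another annotated start, not printed, without a run. Pyrimidine stretches further from the start, as at the end of the Rps12 line and inside the Rps7 line, do not count under this definition. The longest run among these 8 is that of Fau, 16 bases. The RefSeq table held a start region for 25 of the 29 genes, and 13 of these 25 (52.0%) had a run at an annotated start. A run was present in 5328 of all 27025 genes of the table (19.7%) and in 17 of 36 large-subunit ribosomal protein genes (47.2%). Counted by start region, since some genes have several, it was 13 of 30 for the small-subunit genes (43.3%) and 17.1% of all 32851. Rps14, Rps20, Rps27a and Rps29 had no entry.

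The footprint libraries held 4167660 and 6476935 protein-coding reads in KO leucine-free and KO replete cells, and 2425285 and 9250440 in WT leucine-free and WT replete cells. The RNA-seq libraries held between 31357692 and 41911726. WT leucine-free footprints were thus the shallowest library, and it enters every comparison below that involves that condition. Eif2ak4 RNA was 16.7 and 13.6 CPM (normalised reads per 1000000 protein-coding reads) in KO leucine-free and KO replete cells, against 69.7 and 85.7 CPM in WT leucine-free and WT replete cells. Atf4 footprints, which GCN2 activity raises, were 212 and 199 CPM in KO leucine-free and KO replete cells, against 527 and 172 CPM in WT leucine-free and WT replete cells. Of 7 duct and epithelium markers, 5 reached 1 CPM in all 4 RNA libraries, with Krt19 under 1 CPM and Epcam at 0. All 4 mesenchyme markers were present, 2 of 5 fibroblast markers reached 1 CPM in every RNA library, acinar markers summed to at most 0.119 CPM and immune and endothelial markers to at most 0.908 CPM. The summed duct and epithelium markers were 1088 and 473 CPM in KO leucine-free and KO replete cells and 322 and 234 CPM in WT leucine-free and WT replete cells. Sox9 and Krt18 made up most of these sums, Sox9 at 751, 291, 187 and 153 CPM in that order. Krt8 fell in the same order, while Krt7, Cdh1 and Krt19 did not. Cdh1 was at 2.45 and 3.58 CPM in KO leucine-free and KO replete cells, and Krt19 was lowest in KO leucine-free cells. The part of these markers in the results below was not tested.

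A gene was measured in an assay when its mean count over the 4 libraries was at least 30. That held for 28 of the 29 genes in RNA-seq and for 21 in footprints, and the same 21 had a translation efficiency (TE), footprints divided by RNA after scaling each assay. The genes below the limit in footprints were Rps6, Rps10, Rps13, Rps23, Rps27, Rps27a, Rps28 and Rpsa, with mean counts between 12.5 and 29.2. Nearest above it were Rps29 at 37.2 and Rps7 at 40.8. In RNA-seq Rps27 was left out with a mean count of 13.8, and Rps29 was nearest above at 35.5. The count program left out reads that map to several places and reads over overlapping genes. Of the 29 genes, 21 have named pseudogenes, 102 in all, and 11 share exonic bases with another gene, up to 28.7% for Rps10. Counts of such genes can be remnants, and orders of level between genes are uncertain.

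Together the 29 genes took a smaller share of footprints in WT leucine-free cells than in the other 3 footprint libraries. Their share of protein-coding footprints was 0.578% in KO leucine-free and 0.578% in KO replete cells, and 0.438% in WT leucine-free and 0.569% in WT replete cells. Their share of protein-coding RNA reads was 0.193% and 0.203% in KO leucine-free and KO replete cells, and 0.222% and 0.165% in WT leucine-free and WT replete cells. The RNA share was therefore highest in the condition where the footprint share was lowest. These shares come from separate libraries, and whether both were made from the same cultures is not stated. Rps3, a head protein at the mRNA entry channel, made up 27.9% to 33.2% of these footprints.

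Levels per length differed widely among the genes. Mean footprint CPM per kilobase of exon ran from 3.44 in Rps7 to 588 in Rps15, a head protein whose tail reaches the decoding site. Rps21, a small protein of the body, stood at 474, Rps3 at 378 and Rps9, at the mRNA entry channel with Rps3, at 348. In RNA per kilobase the highest was Rps14, a platform protein, at 218 CPM per kilobase, followed by Rps15 at 90.8, Rps4x at 83.6 and Rps2, another protein of the entry channel, at 72.3. The median over the measured genes was 40.7 footprint CPM per kilobase, against 9.67 over all measured protein-coding genes. In RNA it was 7.0, against 7.59. The length used was all annotated exonic bases of a gene, 630 in Rps15 and 4483 in Rps3, and not the coding length. Orders and medians per kilobase therefore depend on the annotation. Before division by length, Rps3 footprints were at 1421 to 1926 CPM and those of Rps15 at 345 to 406 CPM.

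**Figure D1:**
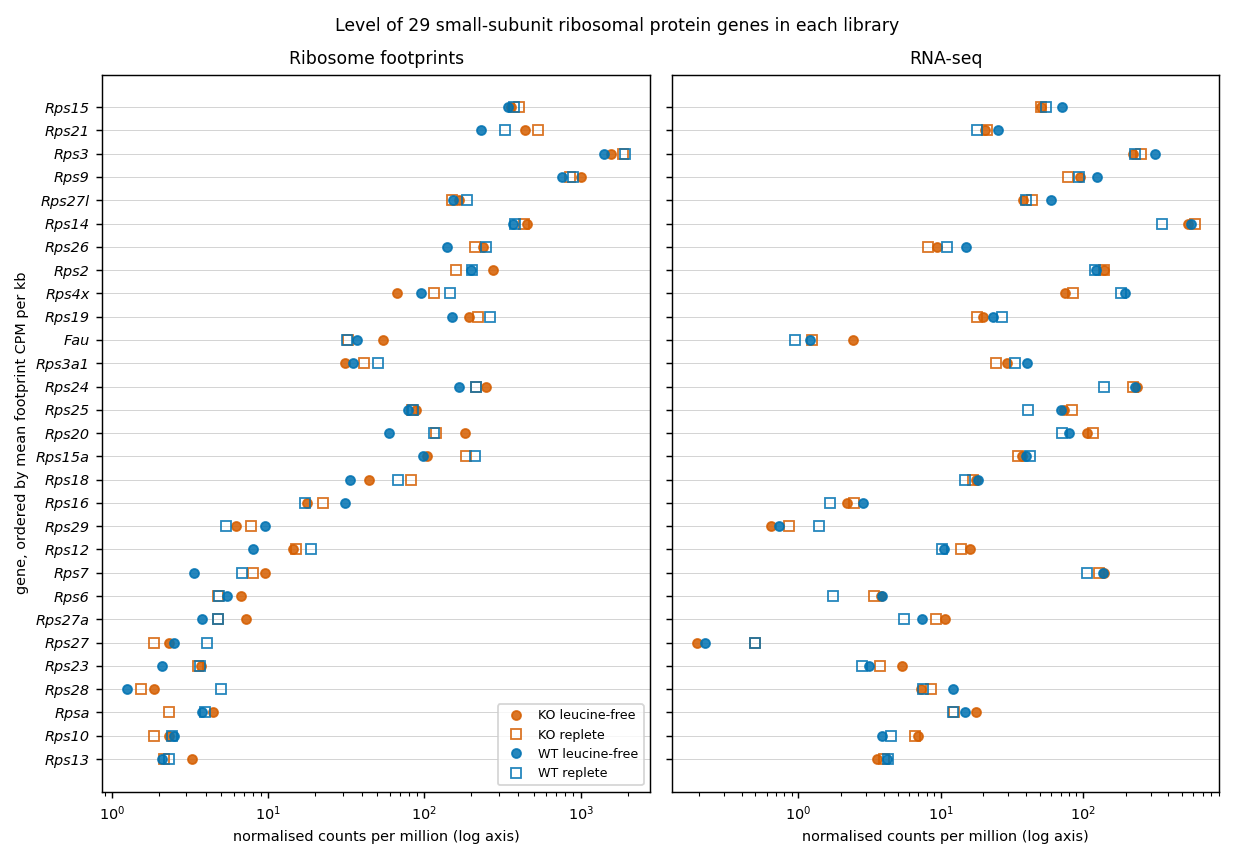
Normalised CPM (log axis) of the 29 genes in the 4 footprint libraries (left) and the 4 RNA-seq libraries (right), ordered by mean footprint CPM per kilobase. Each point is 1 library; Rps3 footprints lie between 1421 and 1926 CPM, while Rps10, Rps13, Rps27 and Rps28 stay under 5 CPM.

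Footprints per RNA differed widely among the measured genes, with Rps26, Fau and Rps21 the highest in KO cells and Rps7 the lowest in every condition. Rps21 had 21.6 and 25.2 in KO leucine-free and KO replete cells, and 9.01 and 18.2 in WT leucine-free and WT replete cells. Rps26, at the mRNA exit, had 25 and 25.7 footprints per RNA in KO leucine-free and KO replete cells, and 9.25 and 22.3 in WT leucine-free and WT replete cells. Fau, which encodes a ubiquitin-like protein fused to a ribosomal protein, had 22.6 and 25.8 in KO leucine-free and KO replete cells, and 30.9 and 33.7 in WT leucine-free and WT replete cells. Rps7, a body protein that can bind MDM2, had the lowest values, 0.067 and 0.0622 in KO leucine-free and KO replete cells and 0.0241 and 0.064 in WT leucine-free and WT replete cells. Its RNA per kilobase lay at the 97.4th percentile of protein-coding genes and its footprints at the 65.5th. All measured genes together had a median footprints per RNA of 1.00 and 1.03 in KO leucine-free and KO replete cells and of 1.02 and 1.03 in WT leucine-free and WT replete cells. These levels depend on how many reads of each gene could be placed, so they describe the counts and not ribosome load alone.

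Rps27 and Rps27l encode near-identical proteins, and Rps27l is the paralogue induced by p53. Rps27l RNA was 38.0 and 43.6 CPM in KO leucine-free and KO replete cells, and 59.4 and 39.7 CPM in WT leucine-free and WT replete cells. Rps27 had only 6 and 19 RNA reads in KO leucine-free and KO replete cells, and 9 and 21 in WT leucine-free and WT replete cells. Rps27l footprints were 166 and 149 CPM in KO leucine-free and KO replete cells, and 152 and 188 CPM in WT leucine-free and WT replete cells, against at most 4.08 CPM for Rps27. Which of the pair is the main product cannot be read from these counts, since reads common to both copies or to a pseudogene are not counted.

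Ratios are given below as log2 of normalised counts with a 95% interval. The interval covers counting error only, because no condition was repeated within an assay, and it treats each read as a separate molecule. Amplified reads that carry no molecular barcode need not stem from separate molecules, so the interval can be too narrow even for counting error. Each ratio compares a pair of libraries, not the conditions they stand for, and normalised counts are relative within a library. A gene was called when its ratio was at least 2-fold and the interval excluded 0 on the log2 scale.

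The comparison of leucine-free with replete medium in KO cells asks how these genes behaved when Gcn2 was disrupted. Footprint ratios lay on both sides of 0, with 10 genes above and 11 below 0, where 50.5% of all genes were below 0. None was called, where 2.14% of all 9169 measured genes were called. The median log2 ratio was -0.06 (-0.31 to 0.28 over the interval bounds), against -0.01 for all genes. It was 0.16 with genes of mean count of at least 10 included. The intervals of 7 genes lay above 0 and those of 8 below, which are 33.3% and 38.1% of the 21, against 20.2% and 22.9% of all genes.

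The higher genes in KO cells were Rps2, Fau and Rps20. Rps2 had 275 CPM in KO leucine-free and 159 CPM in KO replete cells, a log2 ratio of 0.79 (0.67 to 0.91). Fau had 54.7 and 32.3 CPM in KO leucine-free and KO replete cells, a ratio of 0.76 (0.49 to 1.04). Rps20, a head protein that is ubiquitylated on collided ribosomes, had 183 and 118 CPM in KO leucine-free and KO replete cells, a ratio of 0.64 (0.49 to 0.78). Rps7 followed at 0.24, with an interval that includes 0 (-0.38 to 0.86).

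The lower genes in KO cells were Rps18, Rps15a, Rps4x and Rps3a1. Rps18, a head protein that contacts the large subunit, had 44.1 and 81.6 CPM in KO leucine-free and KO replete cells, a ratio of -0.89 (-1.14 to -0.65). Rps15a, a body protein, had 104 and 185 CPM in KO leucine-free and KO replete cells, a ratio of -0.83 (-0.99 to -0.68). Rps4x, encoded on the X chromosome, stood at -0.80 (-1.01 to -0.61), and Rps3a1, a protein of the body, at -0.39 (-0.70 to -0.09). The head genes had a median of -0.19, with 7 of 9 below 0, and the body and platform genes had a median of 0.17, with 8 of 12 above 0.

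The same comparison in WT cells asks how leucine removal appeared with Gcn2 intact. Footprints of 18 of 21 genes were lower in leucine-free medium, where 49.8% of all genes were. The median log2 ratio was -0.44 (-0.53 to -0.20 over the interval bounds), against 0.00 for all genes. Intervals lay below 0 for 14 genes (66.7%) and above 0 for 2, against 15.2% and 14.3% of all genes. Rps12, Rps15a and Rps18 were called lower and none was called higher, where 0.611% of all genes were called lower and 0.883% higher. The head median was -0.44 and the body and platform median -0.45.

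Rps12, a head protein, had 7.94 CPM in WT leucine-free and 18.7 CPM in WT replete cells, from 19 and 170 reads. Its log2 ratio was -1.23 (-2.01 to -0.55), and it was -1.40 with the counts of its 24 named pseudogenes added. Rps15a had 97.8 and 210 CPM in WT leucine-free and WT replete cells, a ratio of -1.10 (-1.31 to -0.91). Rps18 had 33.4 and 67.7 CPM in WT leucine-free and WT replete cells, a ratio of -1.02 (-1.37 to -0.68), which lies at the threshold and was -0.98 with the trend of ratio on gene length removed. Both Rps15a and Rps18 were also among the lower genes of the KO cells, in libraries separate from those of the WT cells. Rps7 stood at -1.01 (-2.31 to 0.04) on 8 reads in WT leucine-free and 62 in WT replete cells and was not called.

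The genes furthest above 0 in WT cells were Rps16, Rps29 and Fau. Rps16, a head protein whose tail reaches the transfer RNA, had 30.9 and 17.1 CPM in WT leucine-free and WT replete cells, a log2 ratio of 0.85 (0.44 to 1.26). Rps29, a zinc-binding head protein, had 9.61 and 5.40 CPM in WT leucine-free and WT replete cells, from 23 and 49 reads, a ratio of 0.82 (0.05 to 1.57). Fau stood at 0.21 (-0.15 to 0.56) and Rps2 at -0.03 (-0.17 to 0.12). The most abundant gene, Rps3, had 1421 and 1926 CPM in WT leucine-free and WT replete cells, a ratio of -0.44 (-0.49 to -0.38), and stood at -0.27 (-0.31 to -0.22) in KO cells.

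**Figure D2:**
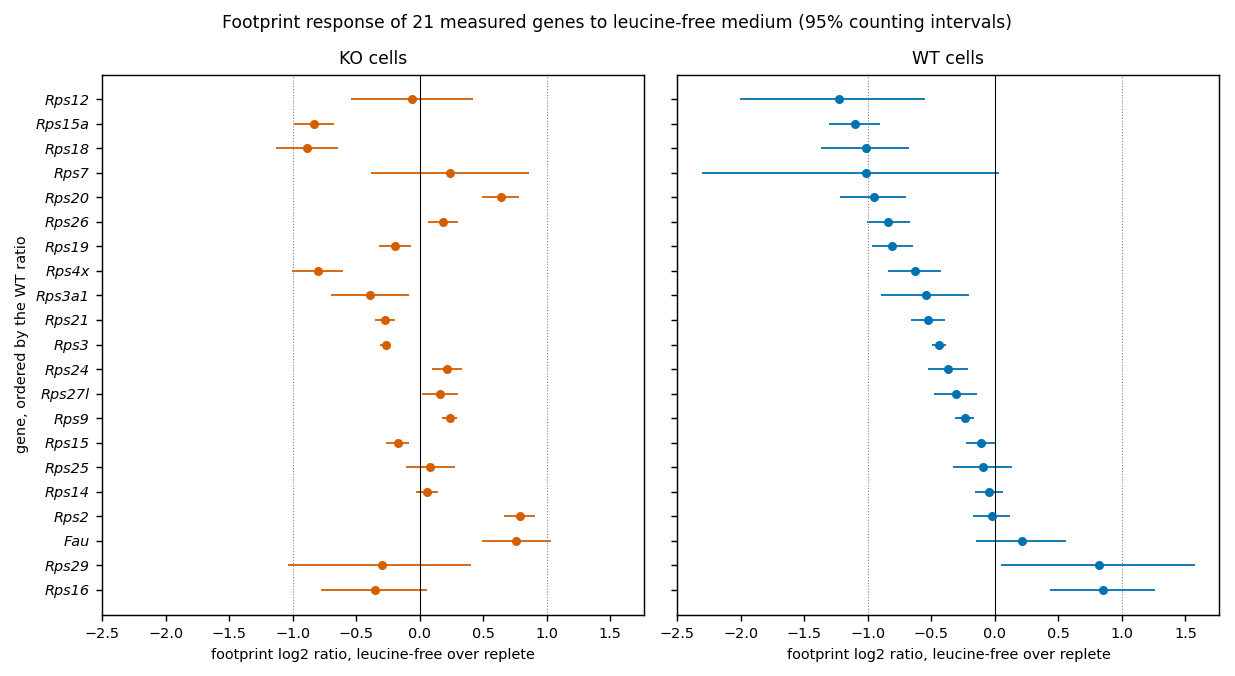
Footprint log2 ratio of leucine-free over replete medium for the 21 measured genes in KO cells (left) and WT cells (right), with bars for 95% counting intervals and dotted lines at 2-fold. In KO cells 10 points lie above and 11 below 0, and in WT cells 3 lie above and 18 below.

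RNA ratios were mostly small in KO cells and mostly above 0 in WT cells. In KO cells 16 of 28 genes were above 0, where 49.3% of all genes were, with a median of 0.05 and none called, where 3.17% of 10814 genes were called. The highest KO ratios were those of Fau at 0.94 (0.41 to 1.5), Rps23, a protein of the decoding centre, at 0.51 (0.18 to 0.84), Rpsa, also known as the laminin receptor, at 0.51 (0.33 to 0.69), and Rps9 at 0.30 (0.22 to 0.37). The lowest KO ratios were those of Rps29 at -0.41 (-1.30 to 0.43), Rps28 at -0.23, Rps4x at -0.20 and Rps27l at -0.20.

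In WT cells 23 of 28 genes had more RNA in leucine-free medium, with a median of 0.35 (0.17 to 0.47 over the interval bounds), against 0.00 for all genes, of which 50.7% were above 0. With the length trend removed this median was 0.16, so it depended in part on the relation of ratio and gene length. Rps6, the S6 kinase substrate, was the 1 gene called, where 0.842% of all genes were called higher. Its RNA was 3.84 and 3.42 CPM in KO leucine-free and KO replete cells, and 3.85 and 1.76 CPM in WT leucine-free and WT replete cells, so the WT replete value stands below the other 3. The WT log2 ratio was 1.12 (0.72 to 1.55) on 157 and 74 reads in WT leucine-free and WT replete cells, and 0.92 with the length trend removed.

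Below Rps6 in WT RNA were Rps16 at 0.78 (0.35 to 1.23), Rps25, a head protein that some viral mRNAs need, at 0.77 (0.69 to 0.86), and Rps24, which acts in rRNA processing, at 0.74 (0.69 to 0.79). Rps25 RNA was 73.5 and 83.9 CPM in KO leucine-free and KO replete cells, and 70.7 and 41.4 CPM in WT leucine-free and WT replete cells. Here too the WT replete library was the low one. Rps25 shares 24.8% of its exonic bases with Ccdc84 and Trappc4. The lowest WT ratios were those of Rps29 at -0.92 (-1.62 to -0.27), on 30 and 59 reads in WT leucine-free and WT replete cells, Rps19, mutated in Diamond-Blackfan anaemia in people, at -0.21, Rps10, a head protein, at -0.20 and Rps15a at -0.11.

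**Figure D3:**
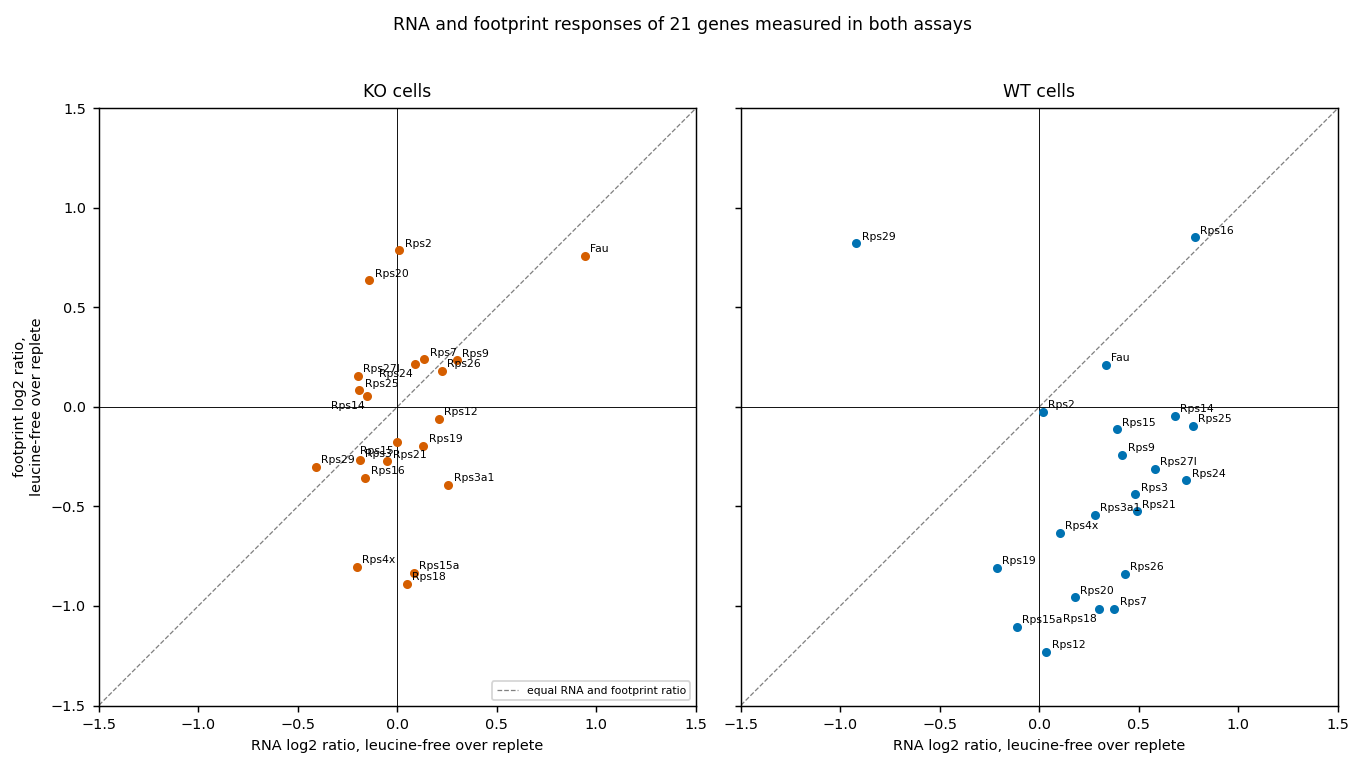
Log2 ratio of leucine-free over replete medium in RNA (horizontal) and footprints (vertical) for the 21 genes measured in both assays, KO cells left and WT cells right; the dashed line marks equal ratios. In KO cells 8 genes lie above the line and 13 below, and in WT cells 2 lie above and 19 below.

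Footprints per RNA combine these differences. In KO cells the log2 TE ratio of 13 of 21 genes was below 0 in leucine-free against replete medium, where 51.7% of all genes were. The KO median was -0.08, and 0.10 with genes of mean count of at least 10, with none called where 3.0% of 9097 genes were called. In WT cells the TE of 19 of 21 genes was lower in leucine-free medium, where 52.3% of all genes were. The WT median was -0.87 (-1.08 to -0.56 over the interval bounds), against -0.02 for all genes, and -0.59 with the length trend removed. In WT cells 7 genes were called lower, where 1.76% of all genes were called lower, and 1 higher, where 1.15% were.

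The genes called lower in TE of WT cells were Rps7, Rps18, Rps26, Rps12, Rps20, Rps24 and Rps21. Rps26 TE, 9.25 in WT leucine-free and 22.3 in WT replete cells, gave a log2 ratio of -1.27 (-1.51 to -1.03). Rps21, at 9.01 in WT leucine-free and 18.2 in WT replete cells, had a WT ratio of -1.02 (-1.20 to -0.83). The WT leucine-free value was the lowest of the 4 for both genes. With the length trend removed Rps26 stood at -0.99 and Rps21 at -0.60, and neither was called. Rps24 had 1.04 and 0.950 footprints per RNA in KO leucine-free and KO replete cells, and 0.711 and 1.53 in WT leucine-free and WT replete cells, a WT ratio of -1.11 (-1.27 to -0.94). The WT ratio of Rps18 was -1.32 (-1.69 to -0.95), that of Rps20 -1.13 (-1.40 to -0.87), that of Rps12 -1.26 (-1.97 to -0.56) and that of Rps7 -1.39 (-2.42 to -0.35). Rps7 had only 8 footprint reads in WT leucine-free cells, and the interval of its WT footprint ratio included 0. Every Rps7 footprint or TE ratio below that involves this condition rests on those reads.

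Rps29 was the gene called higher in TE of WT cells. It had 9.71 and 8.97 footprints per RNA in KO leucine-free and KO replete cells, and 13.1 and 3.85 in WT leucine-free and WT replete cells, a WT log2 ratio of 1.74 (0.79 to 2.69). The WT replete value was the low one, on 59 RNA reads and 49 footprints. Next to it in WT cells were Rps16 at 0.07 (-0.51 to 0.65), Rps2 at -0.04 and Fau at -0.12. In KO cells the highest TE ratios were those of Rps20 at 0.78 (0.62 to 0.93), Rps2 at 0.78 (0.64 to 0.91), Rps27l at 0.35 and Rps25 at 0.27. The lowest were those of Rps18 at -0.94 (-1.23 to -0.65), Rps15a at -0.91 (-1.11 to -0.72), Rps3a1 at -0.65 and Rps4x at -0.60.

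**Figure D4:**
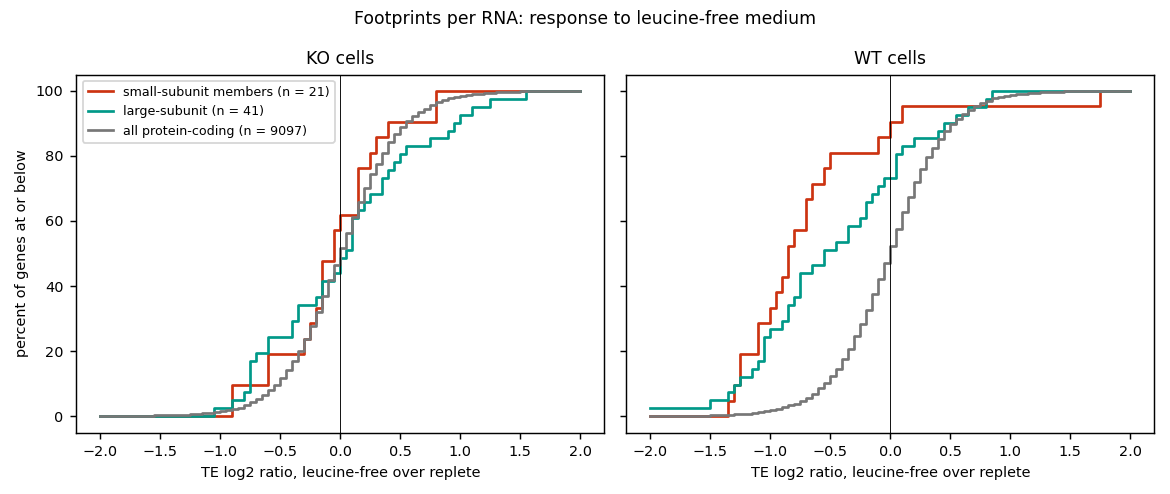
Percent of genes at or below each log2 ratio of footprints per RNA, leucine-free over replete, in KO cells (left) and WT cells (right), for the 21 small-subunit genes, 41 large-subunit genes and 9097 protein-coding genes. The small-subunit and all-gene medians are -0.08 and -0.02 in KO cells, and -0.87 and -0.02 in WT cells.

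The difference between the KO and WT leucine responses, KO minus WT, asks whether leucine removal was accompanied by other changes when Gcn2 was disrupted. It rests on the 4 libraries of an assay and shares them with the comparisons above. In footprints 17 of 21 genes were above 0, where 48.2% of all genes were, with a median of 0.27 (0.10 to 0.57 over the interval bounds), against -0.02 for all genes. The median was 0.47 with genes of mean count of at least 10. Rps20, Rps7, Rps12 and Rps26 were called higher, where 3.03% of all genes were, and Rps16 and Rps29 lower, where 1.65% were.

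Rps20 had 183 and 118 footprint CPM in KO leucine-free and KO replete cells, and 59.8 and 116 CPM in WT leucine-free and WT replete cells. The replete libraries were alike, KO leucine-free was highest and WT leucine-free lowest. Its KO minus WT difference was 1.59 (1.30 to 1.88). Rps26 had 238 and 210 CPM in KO leucine-free and KO replete cells, and 139 and 248 CPM in WT leucine-free and WT replete cells, with WT leucine-free the low one. Its difference was 1.02 (0.82 to 1.22), and 0.96 with the length trend removed.

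Rps12 stood at 1.17 (0.35 to 1.99) in KO minus WT footprints and Rps7 at 1.25 (0.06 to 2.44). The Rps7 value rests on 41 and 52 reads in KO leucine-free and KO replete cells and on 8 and 62 in WT leucine-free and WT replete cells, and with a prior count of 5 its interval included 0. Rps16 stood at -1.21 (-1.77 to -0.64) and Rps29 at -1.12 (-2.10 to -0.15). With the counts of their named pseudogenes added these were -0.55 and -0.74, and neither was called. The next genes below 0 were Rps4x at -0.17 (-0.45 to 0.11) and Rps15 at -0.06 (-0.21 to 0.08).

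In RNA 20 of 28 genes were below 0 in KO minus WT, where 49.4% of all genes were, with a median of -0.23, and -0.10 with the length trend removed. None was called, where 4.65% of all genes were. The lowest were Rps25 at -0.96 (-1.08 to -0.85), Rps6 at -0.96 (-1.49 to -0.42), Rps16 at -0.94 (-1.56 to -0.32) and Rps28 at -0.94 (-1.26 to -0.62). The highest were Fau at 0.61 (-0.19 to 1.40), Rps29 at 0.51 (-0.50 to 1.52), Rps19 at 0.34 (0.14 to 0.54) and Rps23 at 0.33 (-0.15 to 0.82).

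In TE 18 of 21 genes were above 0 in KO minus WT, where 50.2% of all genes were. The median was 0.79 (0.30 to 0.93 over the interval bounds), against 0.00 for all genes. It was 0.49 with the length trend removed and 0.33 over the genes that share no exonic base with another gene. Of the 21, 6 were called higher, where 4.45% of all genes were, and Rps29 was called lower at -1.63 (-3.04 to -0.22), where 3.43% were. Rps29 was not called with its pseudogene added, at -1.25.

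Rps20 had the highest KO minus WT difference in TE, 1.91 (1.61 to 2.22). It had 1.70 and 0.993 footprints per RNA in KO leucine-free and KO replete cells, and 0.742 and 1.63 in WT leucine-free and WT replete cells, so the media stood in opposite order in the 2 genotypes. Rps7 followed at 1.49 (0.30 to 2.69), Rps27l at 1.24 (0.99 to 1.5), Rps24 at 1.23 (1.03 to 1.44), Rps26 at 1.23 (0.87 to 1.58) and Rps25 at 1.14 (0.82 to 1.46). Rps27l stood at 0.89 with the length trend removed. Rps25 footprints ranged only from 79.0 to 88.6 CPM over the 4 conditions, and its WT replete RNA, at 41.4 CPM, was the low one. Rps16 at -0.26 (-1.10 to 0.57), Fau at -0.06 (-0.96 to 0.84) and Rps15a at 0.08 (-0.21 to 0.37) had the lowest values above that of Rps29. Their intervals include 0, and that of Rps15a lies within 1.5-fold of no difference. The body and platform median was 0.81 and the head median 0.38.

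**Figure D5:**
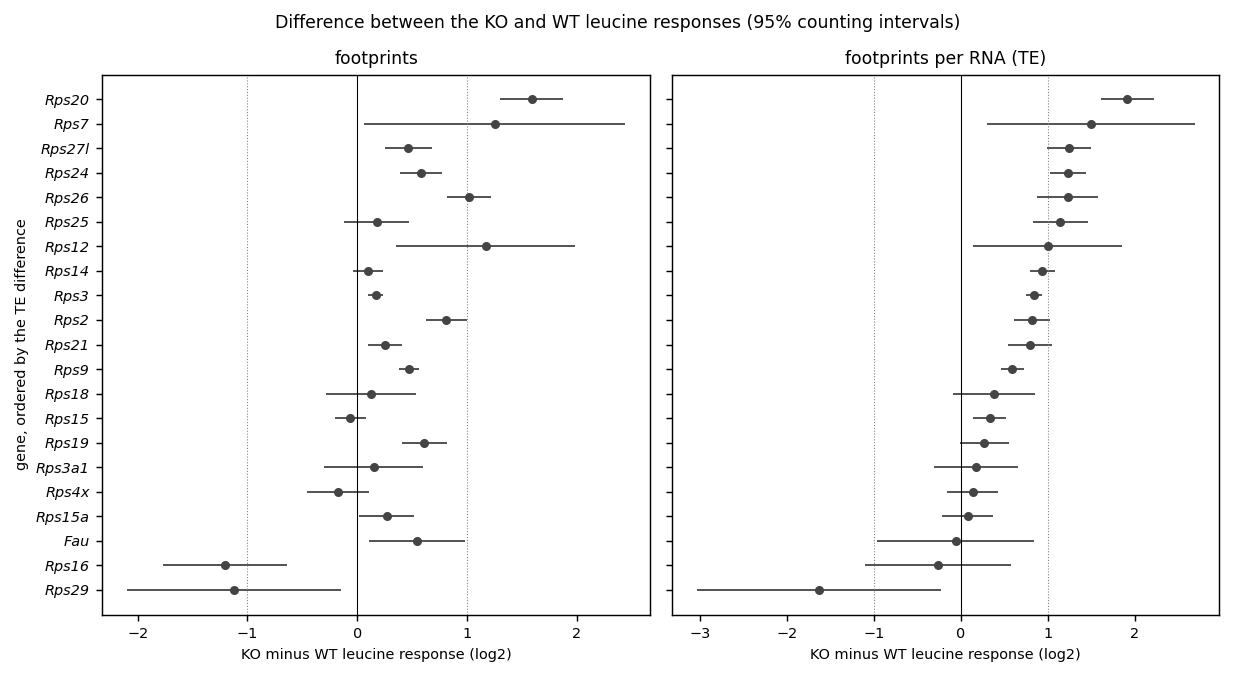
KO minus WT difference of the log2 leucine responses for 21 genes in footprints (left) and footprints per RNA (right), with bars for 95% counting intervals and dotted lines at 2-fold. Rps20 is the highest gene on both sides, at 1.59 and 1.91, and Rps29 the lowest on the right, at -1.63.

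KO against WT cells in leucine-free medium compares the genotypes under starvation. Footprints were higher in KO cells for 17 of 21 genes, where 49.6% of all genes were, with a median of 0.36 (0.10 to 0.49 over the interval bounds). Rps20 at 1.61 (1.36 to 1.88) and Rps7 at 1.47 (0.40 to 2.81) were called higher, where 4.93% of all genes were. Next were Rps21 at 0.95 (0.81 to 1.09) and Rps12 at 0.84 (0.10 to 1.68). The lowest were Rps16 at -0.81 (-1.29 to -0.33), Rps29 at -0.61 (-1.48 to 0.25), Rps4x at -0.51 (-0.77 to -0.25) and Rps3a1 at -0.16 (-0.56 to 0.25).

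TE in leucine-free medium was higher in KO cells for 18 of 21 genes, where 50.5% of all genes were, with a median of 0.54 (0.37 to 0.73 over the interval bounds). Rps7 at 1.43 (0.37 to 2.50), Rps26 at 1.43 (1.16 to 1.70), Rps21 at 1.26 (1.06 to 1.46) and Rps20 at 1.19 (0.93 to 1.46) were called higher, where 3.94% of all genes were. Rps12 stood at 0.24, and with the counts of its pseudogenes added at 1.72, which was called. The 3 genes below 0 were Fau at -0.44 (-1.07 to 0.18), Rps29 at -0.42 (-1.55 to 0.71) and Rps16 at -0.42 (-1.05 to 0.21), and Rps25 stood at 0.11 (-0.15 to 0.37). None of these 4 intervals excludes 0.

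RNA in leucine-free medium had a median of -0.08 for KO against WT, with 17 of 28 genes below 0, where 49.0% of all genes were. Rps4x was called lower, where 3.12% of all genes were. Its RNA was 74.8 and 86.0 CPM in KO leucine-free and KO replete cells, against 199 and 185 CPM in WT leucine-free and WT replete cells, log2 ratios of -1.41 (-1.48 to -1.35) without leucine and -1.11 (-1.17 to -1.05) in replete medium. Both KO libraries thus lay below both WT libraries. Rps4x footprints stood at -0.51 and -0.34 in leucine-free and replete medium, a smaller distance than its RNA. The next lower RNA genes without leucine were Rps28 at -0.75, Rps26 at -0.66 and Rps27l at -0.64.

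The highest RNA ratio in leucine-free medium was that of Fau at 1.00 (0.47 to 1.56), on 75 reads in KO and 49 in WT cells, just under the threshold. Rps10 stood at 0.82 (0.52 to 1.13), Rps23 at 0.77 (0.43 to 1.11) and Rps12 at 0.60 (0.41 to 0.79). With pseudogene counts added the Rps12 value turned to -0.36, so its direction depends on where its reads were placed.

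In replete medium the genotypes lay closer in footprints. The KO against WT median was -0.01, with 9 of 21 genes above 0, where 50.3% of all genes were. None was called, where 3.01% of all genes were. The highest were Rps21 at 0.70 (0.63 to 0.77), Rps29 at 0.51 (-0.08 to 1.11), Rps16 at 0.40 (0.06 to 0.74) and Rps18 at 0.27 (0.10 to 0.44). The lowest were Rps2 at -0.34 (-0.45 to -0.23), Rps4x at -0.34 (-0.47 to -0.21), Rps27l at -0.33 (-0.45 to -0.22) and Rps12 at -0.32 (-0.70 to 0.05).

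Replete RNA had a KO against WT median of 0.20, with 19 of 28 genes above 0, where 50.5% of all genes were. Rps25 was called higher at 1.02 (0.94 to 1.10), where 4.36% of all genes were, and Rps4x lower, where 2.51% were. Rps25 stood at 0.96 with the length trend removed and was then not called. Rps6 at 0.95 (0.53 to 1.39), Rps14 at 0.77 (0.74 to 0.80) and Rps27a, which encodes a ubiquitin fusion, at 0.75 (0.51 to 1.00) followed. After Rps4x the lowest were Rps29 at -0.70 (-1.37 to -0.07), Rps19 at -0.58 (-0.72 to -0.45) and Rps26 at -0.45 (-0.66 to -0.24).

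Replete TE had a KO against WT median of -0.04, and -0.38 with genes of mean count of at least 10. Rps29 was called higher at 1.21 (0.38 to 2.04), where 0.583% of all genes were, and Rps25 lower at -1.03 (-1.21 to -0.85), where 0.802% were. Rps25 stood at -0.98 with the length trend removed and was then not called. Rps4x at 0.77 (0.63 to 0.91), Rps21 at 0.47 and Rps19 at 0.33 were next above 0. Rps12 at -0.75 (-1.15 to -0.35), Rps20 at -0.72 (-0.87 to -0.57) and Rps24 at -0.69 (-0.80 to -0.58) were next below. The Rps12 value was -0.13 with the counts of its pseudogenes added.

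Other parts of the translation machinery are given for comparison, without a test of any difference from the small-subunit genes. Large-subunit ribosomal protein genes had a KO leucine-response median of 0.08 in footprints and 0.04 in TE, and WT medians of -0.37 and -0.57. In WT footprints 31 of 42 were below 0, 2 were called lower (Rpl35a at -1.24 and Rpl13a at -1.12) and Rpl39 higher at 1.13. In WT TE 30 of 41 were below 0 and 11 were called lower, led by Rpl35a at -2.01, Rpl32 at -1.5 and Rpl13a at -1.38. KO minus WT in TE was above 0 for 34 of 41, with a median of 0.51.

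The 16 other TOP mRNAs were those of translation factors, of RNA-binding proteins and of others such as Vim, Nap1l1, Tpt1 and Rack1. Of these, 13 were below 0 in KO footprints, with a median of -0.24. All 16 were below 0 in WT footprints, with a median of -0.45. Called lower in WT footprints were Pabpc1 at -2.30, Hnrnpa1 at -1.37, Tpt1 at -1.11 and Eef1b2 at -1.06. KO minus WT in footprints was above 0 for 10 of the 16, with a median of 0.09, and 2 were called, Pabpc1 at 2.68 and Tpt1 at 1.73. In TE 13 of the 16 were below 0 in the KO leucine response, with a median of -0.28. All 16 were below 0 in the WT response, with a median of -0.74, and 4 were called lower, Pabpc1 at -2.61, Eef1b2 at -1.48, Tpt1 at -1.23 and Rack1 at -1.01. KO minus WT in TE was above 0 for 13 of the 16, with a median of 0.35, and Pabpc1 at 3.25, Tpt1 at 1.5 and Eef1b2 at 1.19 were called higher.

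Regulators of mTORC1 and of TOP mRNAs, 15 genes, had footprint medians of 0.06 in the KO and 0.02 in the WT leucine response. Eif4ebp2, an inhibitor of cap-dependent initiation, was called lower in WT footprints at -1.02, and Eif4ebp1, of the same family, was called higher in WT RNA at 1.14. Assembly factors of the small subunit, 13 genes, had medians of -0.17 in KO and 0.03 in WT footprints and none called. In KO against WT leucine-free RNA 13 of the 13 assembly factors were below 0, where 49.0% of all genes were, with a median of -0.36 and none called. The lowest of them in that comparison was Dimt1, an rRNA methyltransferase, at -0.73. In replete medium 11 of the 13 were below 0 in RNA, where 49.5% of all genes were, with a median of -0.26. Replete footprints were also below 0 for 11 of the 13, where 49.7% of all genes were, with a median of -0.17.

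Genes with and without an oligopyrimidine run at the start are described for the TE response. In KO cells the median TE ratio was -0.06 for the 9 measured small-subunit genes with a run and -0.19 for the 9 without. In WT cells it was -0.99 for the 9 with a run, all below 0, and -0.82 for the 9 without, of which 8 were below 0. Rps12 and Rps7, which have no run within 5 bases of the annotated start, are among the lowest. Outside the ribosomal protein lists the WT median was -0.03 for 1585 genes with a run and -0.01 for 5669 without. The KO minus WT median in TE was 0.79 for the 9 small-subunit genes with a run and 0.33 for the 9 without, with 1 below 0 in each. Outside the ribosomal protein lists that median was -0.003 with a run and -0.006 without. No difference between genes with and without a run was tested. An annotated start need not be the one used in these cells, so the absence of these letters says nothing of the mRNA.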

How the data were processed

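The 8 libraries are RNA-seq and ribosome profiling of Gcn2 KO and Gcn2 WT cells in leucine-free and replete medium, 1 library per group. Per the labels' protocols, lysates contained cycloheximide, footprints were cut with ribonuclease I, ligated to a linker, reverse transcribed and amplified by PCR, and RNA-seq used standard Illumina methods. Cutadapt, STAR, Subread and build GRCm38 appear in the submitters' processing notes. The deposited counts are unscaled, and per the file headers featureCounts 1.6.4 summed reads over exons by gene with Ensembl release 96; its recorded command sets neither strand, nor multiple mapping, nor overlap. Settings for trimming and alignment are not given here.

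From these counts, gene IDs were matched to symbols for 55450 of 55536 genes, and RefSeq gave 21421 protein-coding genes. TMM factors (edgeR 4.0.16, R 4.3.3) over measured protein-coding genes scaled the libraries within each assay, with factors of 0.980 to 1.03 in footprints and 0.989 to 1.01 in RNA. Measured means a mean count of at least 30 in an assay. Ratios used a prior count of 0.5. Pairs of libraries have exact conditional binomial (Clopper-Pearson) 95% intervals, and TE and KO minus WT values have Wald intervals. A median's bounds are the medians of the genes' lower and upper bounds. Python 3.11.15, numpy 2.4.6, pandas 2.3.3, scipy 1.17.1, statsmodels 0.14.6 and matplotlib 3.10.9 were used. The calculation was tested on simulated counts.

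The members and gene lists were chosen with earlier results of these data known, so their direction is no independent support. Named in each comparison are the 4 highest and 4 lowest members, every called member, Rps6 and the pair Rps27 and Rps27l, with up to 4 called genes of each other list, mostly for the leucine responses. Alternatives were other scalings (total counts, DESeq2 1.42.0 size factors, TMM without ribosomal protein genes), other count limits, a prior count of 5, removal of the length trend by lowess, addition of named pseudogenes and a 1.5-fold threshold. Omission of members with shared exons was added after seeing the data. Sequences came from RefSeq on GRCm38.p6.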

Additional observations from a re-analysis of the deposited data

Results flagged for a closer look

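The footprint ratio of leucine-free over replete medium was above 0 in KO cells and below 0 in WT cells, with both counting intervals off 0, for Rps20, Rps26, Rps24, Rps9 and Rps27l. Over all genes 20.2% of KO intervals lay above 0 and 15.2% of WT intervals below 0. The share of all genes that meet both conditions is not given here, so how common the pattern is cannot be read from these values. Rps20 and Rps26 are given because their KO minus WT difference was also called at 2-fold. That difference was 0.58 for Rps24, 0.47 for Rps9 and 0.47 for Rps27l. The Rps20 log2 ratio was 0.64 (0.49 to 0.78) in KO cells and -0.96 (-1.22 to -0.70) in WT cells, a KO minus WT difference of 1.59. The Rps26 log2 ratio was 0.18 (0.06 to 0.30) in KO cells and -0.84 (-1.01 to -0.67) in WT cells, a difference of 1.02. Each value stands on 1 library per condition, so the difference was not tested across cultures. Rps20 RNA was 108 and 119 CPM in KO leucine-free and KO replete cells, and 80.5 and 71.1 CPM in WT leucine-free and WT replete cells. With groups of 1 library no sample could be set against its own group.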

How the results depend on the processing

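No called gene changed direction under the alternatives run. Medians close to 0 did: in 11 of 150 cases, in 5 comparisons (the KO leucine response in all 3 measures, and KO against WT in replete footprints and TE), the median took the other sign, at -0.01 to 0.16. Of the 150 medians 147 stayed within the interval bounds given for the median, and 136 of 165 counts of called genes stayed within 1.5 times. With calls at 1.5-fold, footprints of 21 genes gave 6 called in the KO leucine response (11.3% of all genes) and 9 in the WT response (7.12%), and for KO against WT 6 without leucine (22.1%) and 1 in replete medium (12.1%). RNA of 28 genes gave 1 in the KO response (9.11%) and 8 in the WT response (6.74%), for KO against WT 8 without leucine (21.7%) and 9 in replete medium (18.7%), and 8 for KO minus WT (12.8%). TE of 21 genes gave 6 in the KO response (16.3%), 17 in the WT response (15.1%), for KO against WT 9 without leucine (21.1%) and 7 in replete medium (8.79%), and 13 for KO minus WT (22.2%). With a mean count of at least 100, footprints gave 1 called gene for KO against WT without leucine and 3 for KO minus WT, and TE gave 5 in the WT leucine response and 1 for KO against WT in replete medium. With a mean count of at least 10, or no filter, footprints gave 2 for KO against WT in replete medium, and the TE median there was -0.38. The number of members and the share of all genes called under these count limits are not given here. These counts therefore cannot be set against a background. With the length trend removed, the RNA median of the WT leucine response was 0.16. For KO against WT, RNA then gave 2 called genes in leucine-free medium (913 of all 10814 genes) and 1 in replete medium (722 of all genes). TE gave 1 for KO against WT in replete medium (125 of all 9097 genes). Rps6 RNA in WT cells was then 0.92 and not called. With pseudogene counts added, RNA gave 1 called gene for KO minus WT (Rps16 at -1.13), where 4.65% of all genes were called without this addition. The Rps12 TE difference was 1.85. The Rps12 ratio of KO against WT without leucine was then 1.35 in footprints and 1.72 in TE, both called. Members that share no exonic base with another gene were chosen after seeing the data, and shares of all genes are unchanged by this choice. Footprints gave 1 called gene in the WT leucine response (1.49% of all genes) and 1 for KO against WT without leucine (7.25%). RNA gave 1 for KO against WT in replete medium (6.86%). TE gave 5 in the WT leucine response (2.91%) and 1 for KO against WT in replete medium (1.39%). Total counts, DESeq2 size factors and TMM without ribosomal protein genes shifted the median of all genes by at most 0.082. No paired analysis was possible because the labels carry no replicate numbers and each group is 1 library, so none could be left out either. Levels per coding length were not run for lack of a protein table here. Counting error limits genes with few footprints, such as Rps7 and Rps29, and the spread between cultures is unknown.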

Other observations

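The 5 measured genes outside the cytosolic ribosomal proteins whose 4 footprint values, as log2 CPM minus their mean, lay nearest the median profile of the 21 small-subunit genes were Six5, Spg21, Tpcn1, Lipa and Cyb5r1. Their root mean square distances were 0.00976 to 0.0179 over 4 libraries. The nearest small-subunit gene, Rps25, lay at 0.0809 and the furthest, Rps20, at 0.470, so every one of the 21 lay further from that median than these 5 genes. The likeness is over 4 values among 9169 measured genes and is given as a description.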
